A study of Homo sapiens with 4 samples.

Results

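The genes described here are 10 regulators of the BCL2 family, which decide whether the mitochondrial route to apoptosis is opened. They were taken by symbol from the annotation of the arrays, with every probe that carries the symbol, out of 34755 genes on the array. Of the 10 genes, 3 are anti-apoptotic (BCL2, BCL2L1 and MCL1), 5 are BH3-only (BCL2L11, BBC3, PMAIP1, BMF and BIK) and 2 are effectors (BAX and BAK1). They were read by 15 probes, of which 14 were well above background in both colours on all 4 arrays.

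RNA came from SUM149, an established line of inflammatory breast cancer (IBC), left untreated or kept for 3, 6 or 12 h with 2.5 uM of Ricolinostat (ACY1215), an inhibitor of the cytoplasmic deacetylase HDAC6. Each time point was 1 two-colour Agilent array, with the sample in Cy5 and a common reference in Cy3, which the labels describe as made from treated and untreated cells of the line. The comparison asks how the RNA of these regulators differed from that of untreated cells over the hours with Ricolinostat. HDAC6 activity was not measured on these arrays. The paper inferred it as a score from the expression of genes linked to HDAC6, and reported a lower score in SUM149 with Ricolinostat. The paper also silenced HDAC6 by RNA interference, and used inhibitors that spare class I HDACs more than Ricolinostat does. Which deacetylase a change depends on was not tested. There is 1 culture of 1 line at each time and no array of untreated or vehicle cells kept for 3, 6 or 12 h was analysed here, so that treatment and time in culture cannot be told apart.

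In the BCL2 family, the anti-apoptotic proteins hold the effectors BAX and BAK1 in check at the outer mitochondrial membrane. BH3-only proteins are sensors of stress that bind the anti-apoptotic proteins, and some of them also bind the effectors directly. Once released, the effectors form pores through which cytochrome c leaves the mitochondrion, after which APAF1 and CASP9 assemble the apoptosome and start the caspase cascade. Many BH3-only genes are regulated through transcription, while the effectors are mainly regulated as proteins, which arrays of RNA do not read.

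Values are log2(Cy5/Cy3), and a change is the value at a time minus that on the untreated array. With 1 array per time point no test across cultures was possible and no p-value is given. The only error available was the spread between repeated spots of the same probe on the same arrays. Over 300 probes with at least 9 spots, the SD of the log2 change was 0.15 at 3 h, 0.12 at 6 h and 0.12 at 12 h. It covers neither cultures nor labelling, and most members were read by 1 spot per array.

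Several facts of the arrays bear on every value below. Median signals were low, between 36 and 40 in Cy5 over a background of 24. Spots in damaged areas made up 3.38% of the untreated array and 4.71% of the 3 h array, but 0.199% and 0.0082% of those at 6 and 12 h. After normalization 202 of the 34755 genes were at least 8-fold brighter in Cy3 on its dimmest array than in Cy5 on its brightest. Among the members, BCL2, MCL1, BCL2L11, BBC3 and PMAIP1 were brighter in Cy3 than in Cy5 on all 4 arrays, and BIK, BAX and BAK1 were dimmer on all 4. Whether this lies in the dyes or in what the reference holds was not tested, and only changes from the untreated array are used as results. All 8 epithelial markers (EPCAM, CDH1, KRT5, KRT14, KRT17, KRT18, KRT8 and EGFR) were well above background in Cy5 at every time. Of the 3 genes ESR1, PGR and ERBB2, PGR was not above background and ESR1 and ERBB2 were, with Cy5 signals of up to 262 and 303.75. Of 10 markers of other cell types, 8 were also well above background and COL3A1 and HBB were not. The summed Cy5 signal of these 10 lay between 2034 and 2562.5 on the 4 arrays, and that of the 8 epithelial markers between 77157 and 103501.5. At 12 h CD14 was at a log2 change of 0.61, COL1A1 at 0.67 and the epithelial CDH1 at 1.32, and their part in the results was not tested.

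The BH3-only genes held the members that stood farthest above the untreated array. BMF was 1.99 higher on the log2 scale at 3 h, PMAIP1 1.14 and BCL2L11 1.12, which are changes of more than 2-fold. The anti-apoptotic genes were mixed, with BCL2 higher and BCL2L1 lower at 3 and 6 h. The ratios of the effectors BAX and BAK1 changed little at all 3 times. For BAK1, however, Cy5 changed by 1.15, 1.39 and 1.27 and Cy3 by 1.17, 1.34 and 1.33, and no direction is given for it. The median change at 3, 6 and 12 h was 1.12, 1.12 and 0.71 over the 5 BH3-only genes. It was 0.64, 0.49 and 0.42 with the median over the probes of each gene, and 0.88, 0.65 and 0.48 with damaged areas left out. For the 3 anti-apoptotic genes it was 0.11, 0.37 and 0.17, and for the 2 effectors 0.10, 0.090 and 0.029. The median of all genes measured was 0.0075, 0.016 and 0.014. In bulk RNA, fewer cells with a transcript and less of it per cell cannot be told apart.

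**Figure D1:**
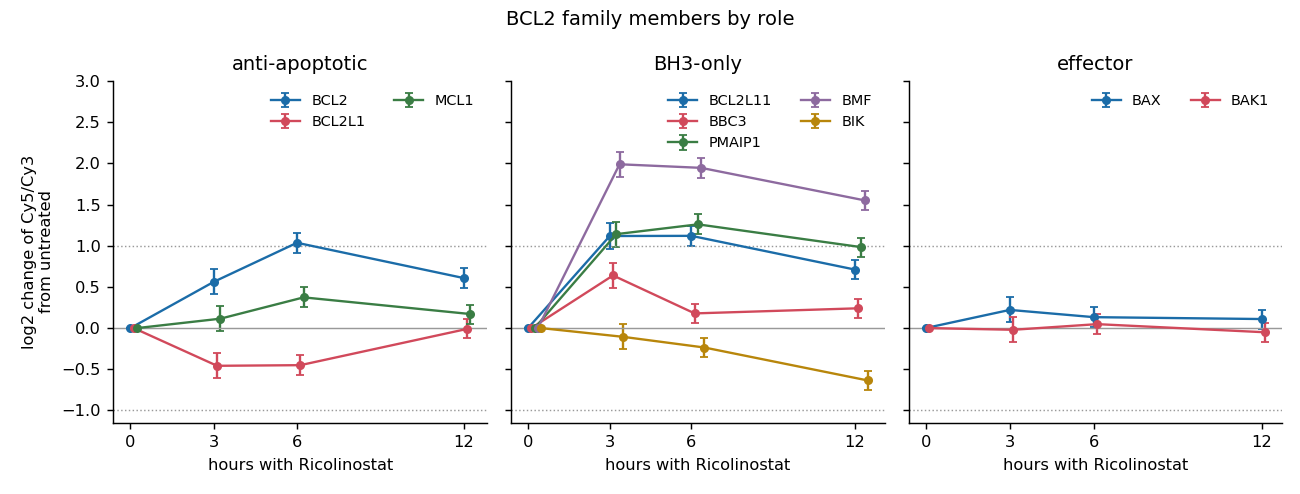
Log2 change of Cy5/Cy3 from the untreated array (vertical axis) against hours with Ricolinostat (horizontal axis) for the 10 members, in panels by role and with points shifted sideways for legibility. Bars are the technical SD between repeated spots (0.15, 0.12 and 0.12) and dotted lines mark 2-fold. Of the BH3-only genes, BMF, PMAIP1 and BCL2L11 sit above the upper line at 3 and 6 h. Both effectors stay near 0 by ratio, although Cy5 and Cy3 of BAK1 both changed.

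Counted against the whole array, 3 of the 10 members were at least 2-fold higher at 3 h (BMF, PMAIP1 and BCL2L11), where 1.69% of 20766 genes were. At 6 h the count was 4, with BCL2 added, where 2.81% of 20342 genes were as high. At 12 h BMF alone was past 2-fold, where 2.34% of 20479 genes were. With damaged areas left out, which removes BMF, the counts were 2, 3 and 0, and with the median over the probes of a gene 2, 2 and 1. No member was 2-fold lower at 3, 6 or 12 h, as were 0.366%, 0.939% and 1.12% of genes.

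With a threshold of 1.5-fold, 4 members were higher at 3 h, all BH3-only, against 6.87% of genes. BCL2 lay just under it at that time, with a log2 change of 0.56 where 1.5-fold is 0.585. The count was also 4 at 6 h, against 9.4% of genes, and 4 at 12 h, against 8.09%, each time BMF, PMAIP1, BCL2L11 and BCL2. Members lower by 1.5-fold were 0 at 3 h and 0 at 6 h, where 1.96% and 4.42% of genes were, and 1 at 12 h, BIK, where 5.13% were. The members were picked with earlier results of these arrays known, so that these shares describe the family and are no test of it.

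**Figure D2:**
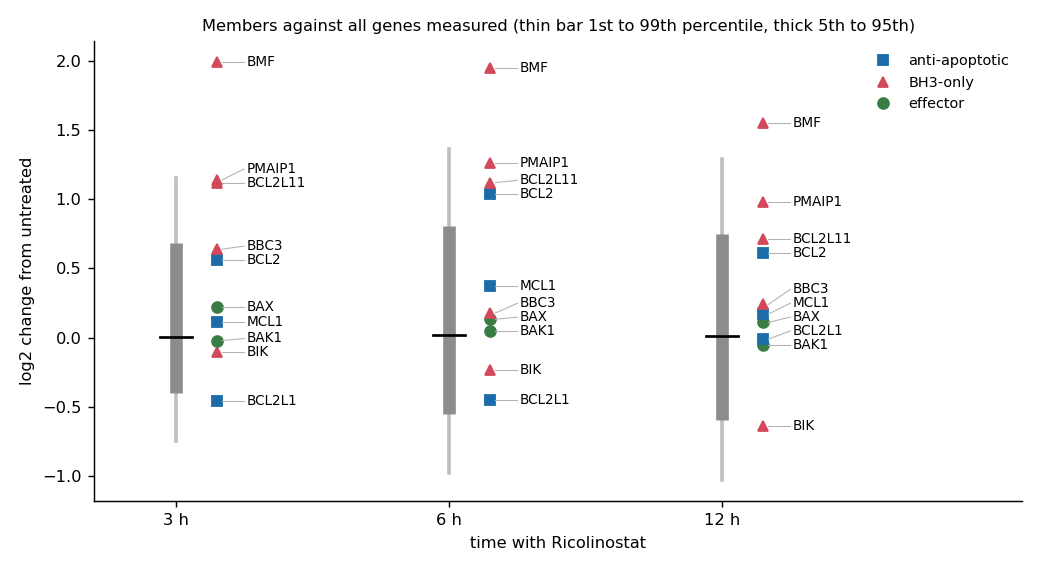
Log2 change from untreated (vertical axis) of the 10 members at 3, 6 and 12 h (horizontal axis), with squares for anti-apoptotic, triangles for BH3-only and circles for effector genes. Grey bars give all genes measured, thin from percentile 1 to 99 and thick from 5 to 95 with a black line at the median, and BMF lies above percentile 99 at all 3 times.

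BMF, PMAIP1 and BCL2L11 were past 2-fold at 3 and 6 h by the probes that stand for them, although 2 other probes of BCL2L11 were not and the untreated spot of BMF lay in a damaged area. The 250 bases before their RefSeq starts are shown here beside those of BAX, the member measured by the most spots, whose RNA differed little from untreated. Sequences are from RefSeq on GRCh38.p14, where 8 of the 10 members had an entry and MCL1 and BIK had none. They run 5′ to 3′ on the strand of the gene, BMF from chr15:40108880-40109129 on the minus strand, PMAIP1 from chr18:59899746-59899995, BCL2L11 from chr2:111120664-111120913 and BAX from chr19:48954625-48954874, the last 3 on the plus strand. Capitals mark the GC box GGGCGG or its reverse complement CCGCCC.
BMF: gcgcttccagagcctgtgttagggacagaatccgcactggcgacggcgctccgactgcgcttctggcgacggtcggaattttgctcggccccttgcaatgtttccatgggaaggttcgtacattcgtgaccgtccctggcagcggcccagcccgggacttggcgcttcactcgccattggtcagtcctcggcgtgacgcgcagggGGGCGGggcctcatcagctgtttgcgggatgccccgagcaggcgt
PMAIP1: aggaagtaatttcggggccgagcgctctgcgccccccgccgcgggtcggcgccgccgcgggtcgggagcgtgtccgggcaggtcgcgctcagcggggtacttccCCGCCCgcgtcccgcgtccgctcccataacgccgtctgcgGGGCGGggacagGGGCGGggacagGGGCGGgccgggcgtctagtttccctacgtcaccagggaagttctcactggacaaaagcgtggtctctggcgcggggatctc
BCL2L11: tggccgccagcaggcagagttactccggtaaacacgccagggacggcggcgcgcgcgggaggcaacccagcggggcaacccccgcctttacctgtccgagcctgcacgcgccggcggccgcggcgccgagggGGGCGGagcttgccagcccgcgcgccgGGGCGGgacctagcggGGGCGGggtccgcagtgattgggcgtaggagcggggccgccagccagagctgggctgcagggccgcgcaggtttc
BAX: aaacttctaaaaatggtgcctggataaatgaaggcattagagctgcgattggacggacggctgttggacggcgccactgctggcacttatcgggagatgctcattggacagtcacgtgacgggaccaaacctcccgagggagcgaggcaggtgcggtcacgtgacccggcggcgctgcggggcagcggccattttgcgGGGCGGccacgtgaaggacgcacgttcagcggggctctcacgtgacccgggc

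The GC box, the letters bound by the SP family of factors, was found 4 times before PMAIP1, 3 times before BCL2L11, 1 time before BMF and 1 time before BAX. Of 35116 promoters of the same length, 42.6% held it at least 1 time and 13.9% held it at least 3 times. With BAK1, 5 of the 8 members with an entry held it. BCL2L11 also held the forkhead letters GTAAACA 1 time (2.98% of promoters, both strands), near the 5′ end of the sequence shown. BAX held the E box CACGTG 4 times, and 0.0797% of promoters held it 3 times or more; these letters are in lower case above. The E box was also found 1 time before BBC3 and in 6.34% of promoters. The other letters searched were the CCAAT box CCAAT, found in 5 of the 8 members and 32% of promoters, the TATA box TATAAA, found before BCL2L1 alone and in 10.7%, and the cyclic AMP element TGACGTCA, found before none of the 8 and in 1.65%. BMF has a further RefSeq start, and the 250 bases before that one held no GC box. The GC content was 65.2% for BMF, 72.8% for PMAIP1, 76.8% for BCL2L11 and 62.8% for BAX, with a median of 58% over all promoters. The counts describe letters only, and no binding was measured.

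BMF codes for a BH3-only protein that is held at the actin and myosin motor complexes and released on loss of attachment. The Cy5 signal of its brighter probe, A_23_P379649, was 46.5 on the untreated array, 378 at 3 h, 288 at 6 h and 226 at 12 h. The Cy3 signal of the same spot was 131.5, 149.5, 148.5 and 174. The untreated array was thus the lowest in Cy5, 3 h was the highest, and the reference varied far less.

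The ratio log2(Cy5/Cy3) of BMF was -1.12, 0.87, 0.82 and 0.43, which gives changes of 1.99, 1.95 and 1.55, or 3.97-fold, 3.85-fold and 2.93-fold. BMF ranked 17 from the top of 20766 genes at 3 h, 29 of 20342 at 6 h and 81 of 20479 at 12 h. Its spot on the untreated array lay in a damaged area, although it was not marked as an outlier and its own Cy3 was within 0.27 on the log2 scale of that on the treated arrays. Without damaged areas BMF had no value, and between the treated arrays, which do not use that spot, it was 0.44 lower at 12 h than at 3 h.

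The other BMF probe, A_33_P3346801, was dim, with Cy5 signals of 28, 44.5, 42 and 45, and was not well above background on the untreated array. Its untreated value is therefore only a limit. The change of its ratio was 0.25, 0.34 and 0.43, and that of Cy5 alone, which is open to dye bias, 0.28, 0.30 and 0.40. Both probes were lowest in the untreated array, by very different amounts.

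PMAIP1 (NOXA), which binds MCL1 and favours its degradation, was read by 1 probe far above background. Its Cy5 signal was 655 untreated, 1819 at 3 h, 1259 at 6 h and 871.5 at 12 h, with Cy3 signals of 1512, 1596, 1324 and 1281. The ratio was -1.59, -0.45, -0.33 and -0.61. The untreated array was the lowest of the 4 and the 3 treated arrays lay within 0.28 of each other.

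The change of PMAIP1 was 1.14 at 3 h, 1.26 at 6 h and 0.98 at 12 h, the last just under 2-fold. Over 8 other ways of processing the arrays it stayed past 2-fold at 3 h (1.07 to 1.33) and at 6 h (1.08 to 1.28). The filter on dim probes, the median over probes and the damaged areas could not change it, as its single probe was bright and undamaged. At 12 h the change of PMAIP1 ranged from 0.69 to 1.02 and was past 2-fold in 1 of 8. PMAIP1 was the only member past 2-fold at 3 and 6 h in all 8, since BMF had no value in 1 of them and BCL2L11 and BCL2 fell below 2-fold in others.

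BCL2L11 (BIM), a BH3-only protein that binds all the anti-apoptotic members and can act on the effectors, was read by 3 probes that differed. A_24_P122921, which stands for the gene as the brightest in Cy3, had Cy5 signals of 373, 1187, 696 and 459.5 at 0, 3, 6 and 12 h. Its Cy3 signals were 1032.5, 1212, 938 and 954, so that the ratio was lowest on the untreated array. Its changes were 1.12, 1.12 and 0.71.

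The probe A_33_P3251932 of BCL2L11 gave 0.45, 0.49 and 0.42, and its spot on the untreated array lay in a damaged area. The probe A_33_P3398526 gave -0.011, 0.051 and -0.0083, all within the technical SD. The array annotation gives these last 2 probes the same transcript of BCL2L11 and the first probe another. Which transcript each probe reads was not checked, since the probe sequences were not used here. Taken as the median over its probes, the gene was at 0.45, 0.49 and 0.42, below 2-fold at each time.

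BBC3 (PUMA), a BH3-only protein that binds all the anti-apoptotic members, had Cy5 signals of 366, 783.5, 352 and 380. The 3 h array alone was high, and the other 3 were close together. The changes were 0.64, 0.18 and 0.24. The 3 h value exceeded the technical SD, while at 12 h the sign turned (-0.024) when arrays were centred on their medians in place of loess.

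BIK, a BH3-only protein of the endoplasmic reticulum, was the member of its role that went the other way. Its Cy5 signal was 1625 untreated and 1351, 985.5 and 753.5 at 3, 6 and 12 h, lower at each later time, with Cy3 signals between 168 and 203.5. The changes were -0.11, -0.24 and -0.64. At 12 h 95.8% of genes had a higher value than BIK. Over the 8 alternatives BIK was between -0.95 and -0.54 at 12 h and below 0 in all of them. As for PMAIP1, those on dim probes, several probes and damaged areas could not move BIK.

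**Figure D3:**
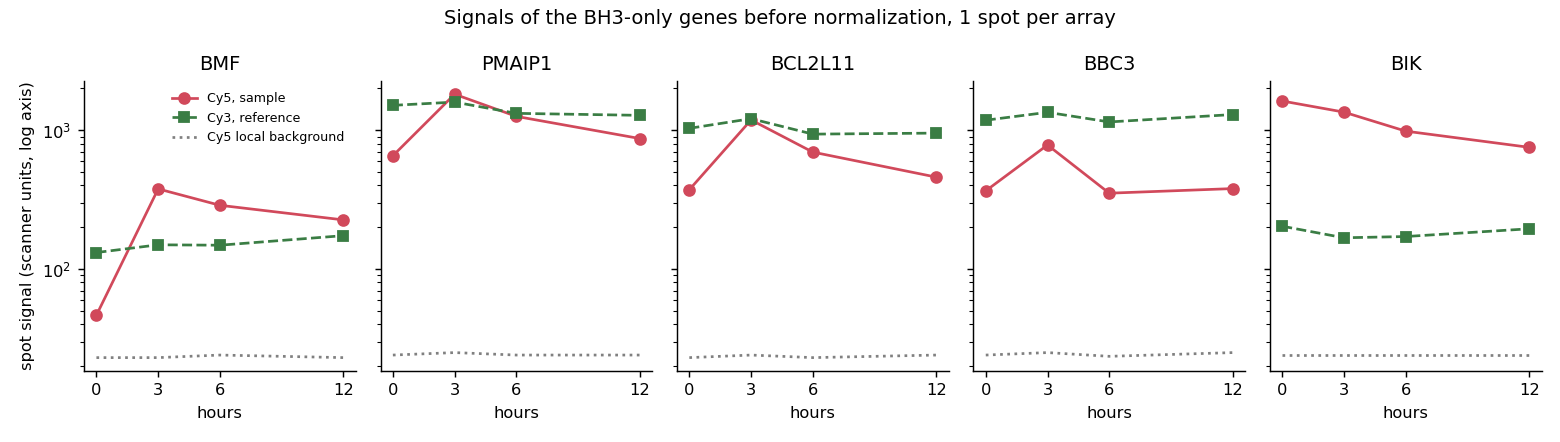
Median spot signals before normalization (vertical axis, scanner units on a log scale) of the probes that stand for the 5 BH3-only genes, against hours with Ricolinostat (horizontal axis), 1 spot per array. Circles are Cy5 (sample), squares Cy3 (reference) and dotted lines the local Cy5 background; BMF runs from 46.5 to 378 in Cy5 between 0 and 3 h, and BIK descends from 1625 to 753.5 by 12 h.

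Among the anti-apoptotic genes, BCL2, the founding inhibitor of the family, was the only 1 of the 3 past 2-fold. Its probe A_23_P352266 was dim in Cy5, at 41.5, 68, 92 and 45 over a background of 23 to 25, and the ratio was -2.77, -2.21, -1.74 and -2.16. The changes were 0.56, 1.04 and 0.61, with the untreated array lowest and 6 h highest. At 6 h the value ran from 0.69 to 1.88 over 8 alternatives and was past 2-fold in 5 of them, the lowest being the median of its probes. Among these 5, leaving out damaged areas or the filter on dim probes could not move it. The other probe, A_33_P3355185, gave 0.20, 0.34 and 0.38, also above the technical SD but under 1.5-fold.

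BCL2L1 (BCL-XL) had Cy5 signals of 233.5, 183, 120.5 and 161, and Cy3 signals of 200.5, 209, 176.5 and 175.5. The changes were -0.46, -0.45 and -0.011. It was thus lower at 3 and 6 h and, by the main processing, back at the untreated ratio at 12 h. The 12 h value was -0.25 with Cy5 taken alone, -0.24 under median centring and -0.18 with the processed signals of the scanner software. At 3 and 6 h all 8 alternatives lay between -0.83 and -0.37. Those on dim probes, several probes and damaged areas could not move BCL2L1, which was read by a single undamaged probe.

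MCL1, a short-lived inhibitor and the main partner of PMAIP1, had Cy5 signals of 1041.5, 1208, 1137.5 and 808.5 beside Cy3 signals of 992 to 1098.5. Its changes were 0.11, 0.37 and 0.17, and only that at 6 h was over 2 times the technical SD. At 12 h the sign depended on the scaling, with -0.15 under median centring and -0.029 with Cy5 alone.

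BAX, the effector that moves from the cytosol to mitochondria, was the best measured member, with 10 spots of A_23_P208706 on each array. The median Cy5 signal of the spots was 2684.25 untreated, 3849.5 at 3 h, 2659.75 at 6 h and 2370 at 12 h, and the Cy3 medians were 1210.75, 1334.5, 1358.75 and 1346.5. The change over spots was 0.23 ± 0.16 (SD, 8 spots) at 3 h, 0.13 ± 0.14 (10 spots) at 6 h and 0.12 ± 0.15 (8 spots) at 12 h. It was above 0 in 7, 8 and 6 spots, and at 6 and 12 h the mean was smaller than the SD between spots. That SD is for single spots and not for their mean. The only spot below 0 at 3 h (-0.12) lay in a damaged area on the untreated array. With damaged areas left out the change of this probe was 0.24, 0.15 and 0.13.

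The other BAX probe, A_33_P3341144, gave -0.059, -0.078 and -0.066, within the technical SD and on the other side of 0. Under median centring the value of the probe with 10 spots was -0.044 at 6 h and -0.22 at 12 h. No direction for BAX is therefore given.

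BAK1, the effector that resides in the mitochondrial membrane, had changes of -0.021, 0.048 and -0.051, all within the technical SD. Its signals were not flat. In Cy5 they were 582, 1532.5, 1489 and 1242, and in Cy3 213, 491.5, 572 and 580, so that the spot was dim in both colours on the untreated array. From the Cy5 channel alone the changes were 1.15, 1.39 and 1.27, and the normalized Cy3 of the same spot changed by 1.17, 1.34 and 1.33. The reference is meant to be the same on all arrays. The spot was not in an area counted as damaged. Under the processed signals of the scanner software BAK1 was at -0.42, -0.35 and -0.42, and under median centring at 0.25 at 3 h, and no direction is given for it either.

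**Figure D4:**
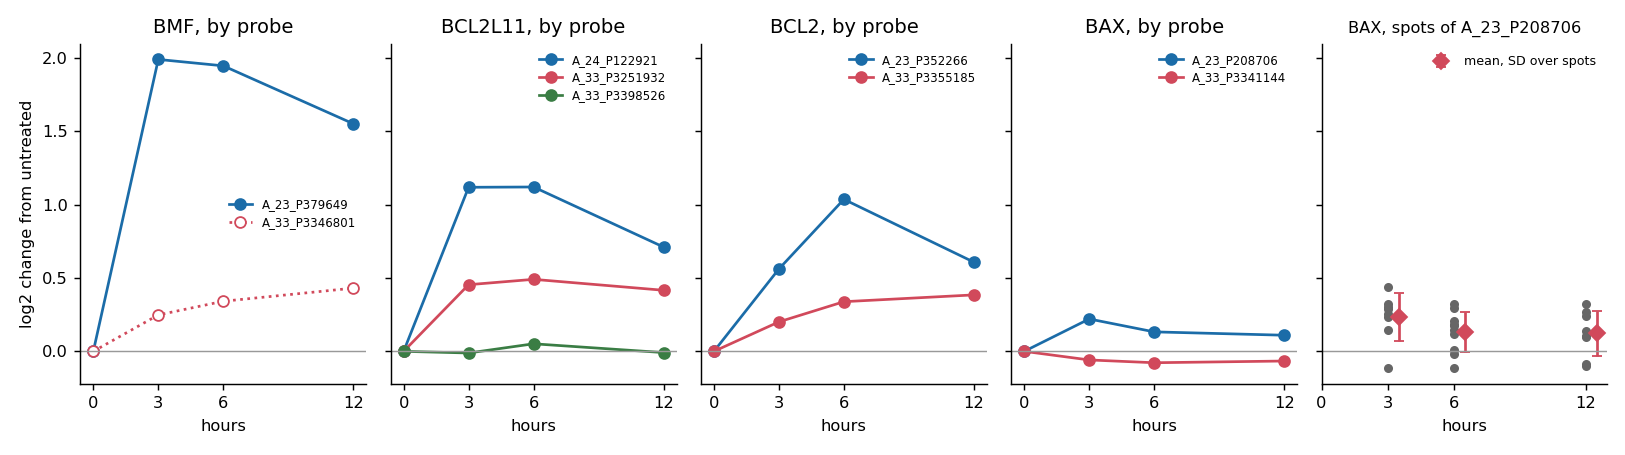
Log2 change from untreated (vertical axis) against hours (horizontal axis) for each probe of the 4 members read by several probes, and for the single spots of the BAX probe with 10 spots. The open, dotted BMF probe was not well above background in untreated cells, diamonds with bars are the mean and SD over BAX spots, and the 3 BCL2L11 probes spread from near 0 to 1.12 at 3 h.

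The treated arrays can be compared without the untreated one. By the probes that stand for them, all 5 BH3-only genes were lower at 12 h than at 3 h, with a median difference of -0.41. The difference on the log2 scale was -0.53 for BIK, -0.44 for BMF, -0.41 for BCL2L11, -0.40 for BBC3 and -0.16 for PMAIP1. The last was close to the technical SD of the changes from untreated, and no SD was computed between treated arrays. Over all genes measured on both arrays 49.5% were lower and the median was 0.0029. Other probes did not follow, with 0.18 for the dim BMF probe and -0.038 and 0.0029 for the other BCL2L11 probes. From 6 to 12 h, the pair of arrays with the fewest damaged spots, 4 of the 5 were lower with a median of -0.39, and BBC3 was at 0.062, where 51.4% of all genes were lower with a median of -0.0056.

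By the main processing all 3 anti-apoptotic genes were higher at 12 h than at 3 h, BCL2L1 by 0.45, MCL1 by 0.057 and BCL2 by 0.047. The values of MCL1 and BCL2 were smaller than the technical SD of the changes from untreated, and their direction depended on the processing. Under median centring BCL2 was at 0.67 at 3 h and 0.42 at 12 h, and MCL1 at 0.24 and -0.15. In the authors' table BCL2 was at 0.95 and 0.78, but MCL1 was at 0.023 and 0.15. From 6 to 12 h the anti-apoptotic genes did not share one course. BCL2L1 was 0.44 higher at 12 h than at 6 h. BCL2 was 0.43 lower, on a dim probe, and MCL1 was 0.20 lower. BAX and BAK1 differed by no more than 0.11 between any pair of treated arrays.

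**Figure D5:**
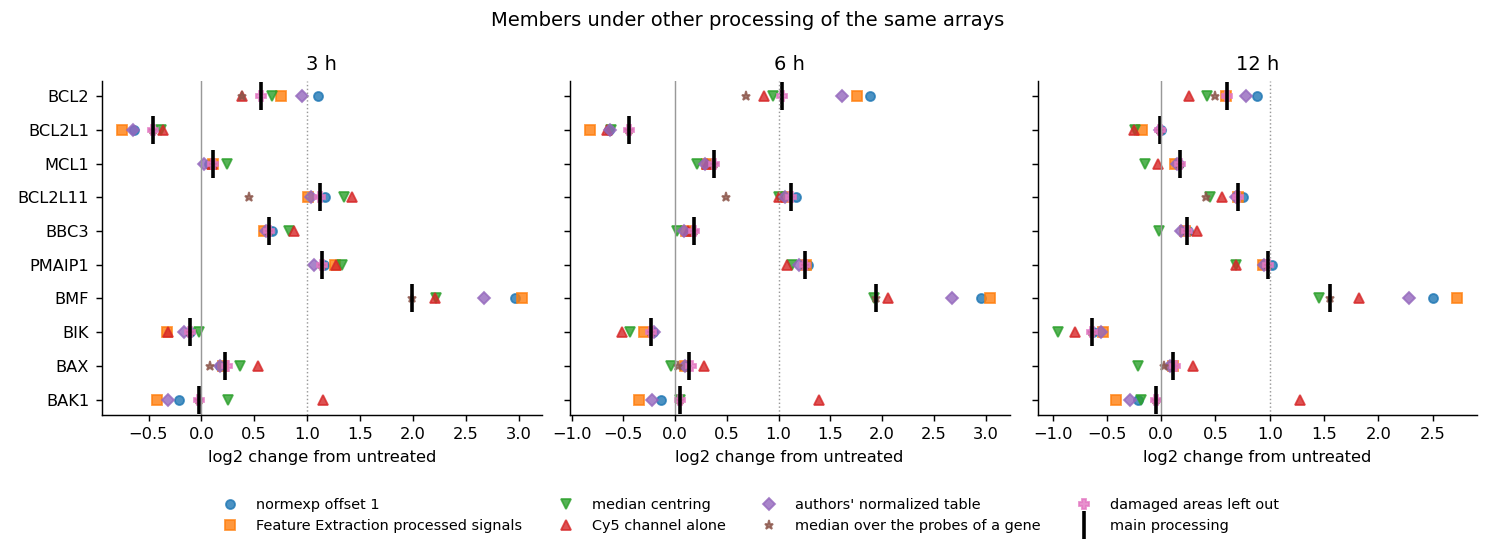
Log2 change from untreated (horizontal axis) of each member (vertical axis) at 3, 6 and 12 h under other processing of the same arrays, with symbols named in the legend, a black bar for the values in the text and a dotted line at 2-fold. PMAIP1 stays right of the line at 3 and 6 h, BMF spreads from 1.99 to 3.03 at 3 h, and BAK1 lies on both sides of 0 with Cy5 alone far to the right.

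Of 13 other genes of the family, 11 were measured at each time and their median change was 0.0072, -0.024 and -0.059. The anti-apoptotic BCL2L2 (BCL-w) was at 1.22 at 3 h, where its spot lay in a damaged area, and at 0.34 and 0.38 at 6 and 12 h. BCL2L12, an inhibitor of the caspase route, was at 0.29, 0.56 and 0.60, and its other probe at 0.050, 0.13 and 0.23. BID, a BH3-only protein cleaved by caspase 8, was at -0.27, -0.42 and -0.60, and its other probe at 0.018, -0.24 and -0.45. BIK and BID, by the probes that stand for them, were thus the BH3-only genes lower by 1.5-fold at 12 h. By the probes that stand for the 11 genes, BCL2L2 at 3 h was the only 1 past 2-fold in either direction, but other probes differed. Over all genes 1.69% were 2-fold higher at 3 h. The 2 other probes of BNIP3L, a mitophagy receptor, had a median of 0.81, 1.19 and 1.49 beside 0.0072, 0.14 and -0.58 by the probe that stands for it. The other probe of the anti-apoptotic BCL2A1 was at -1.13, -0.93 and -0.82 beside -0.20, -0.024 and -0.095. Both genes were named after their values were seen.

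Downstream of the effectors, 16 genes of the apoptosome, the caspases and their inhibitors were measured, with medians of -0.023, 0.068 and 0.15. CASP9, the initiator caspase of the mitochondrial route, was at 0.83, 1.37 and 1.18. Its partner APAF1 was at 0.99, 1.33 and 0.67, with the untreated spot in a damaged area. AIFM1, a mitochondrial flavoprotein, was at 1.05 at 3 h on a damaged spot and at 0.31 and 0.29 later.

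The caspase inhibitors were mixed. XIAP, which blocks CASP9, was at -0.84, -1.03 and -0.91, and its other probe at -0.37, -0.19 and -0.34. BIRC3, a target of NF-kB, was at -0.12, 1.18 and 2.24, and BIRC2 at 0.58, 0.73 and 0.74. Counted at 2-fold, 1, 3 and 2 of the 16 genes were higher, where 1.69%, 2.81% and 2.34% of all genes were. Lower were 0, 1 and 0, where 0.366%, 0.939% and 1.12% of all genes were. The only 1 higher at 3 h was AIFM1, on a damaged spot.

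In the death receptor route, which opens caspases from the cell surface and meets the BCL2 family at BID, no gene measured was 1.5-fold higher. The medians were -0.17, -0.38 and -0.28 over 9, 10 and 10 of 11 genes. FADD, the adaptor of the receptors, was at -0.75, -0.85 and -0.59 and the kinase RIPK1 at -0.77, -0.45 and -0.84. At 1.5-fold, 2, 1 and 2 genes were lower, all of them FADD or RIPK1, where 1.96%, 4.42% and 5.13% of all genes were lower. Over all genes 6.87%, 9.4% and 8.09% were 1.5-fold higher.

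Of 18 genes known to control the members' transcription or stability, 16 were measured and the medians were -0.018, 0.010 and 0.0074. At 2-fold, 2, 1 and 0 of the 16 were higher, where 1.69%, 2.81% and 2.34% of all genes were. Lower were 1, 1 and 0, where 0.366%, 0.939% and 1.12% of all genes were. Of the 2 higher at 3 h, FBXW7 lay on a damaged spot. JUN, an AP-1 factor that can drive BCL2L11, was at 1.08, 1.04 and 0.98. FOXO3, a forkhead factor of BCL2L11 and BBC3, was at 0.79, 0.40 and 0.34, and its 2 other probes had a median of 0.46, 0.24 and 0.35. FBXW7, a ubiquitin ligase subunit of MCL1, was at 1.32 on a damaged spot and then at 0.89 and 0.40.

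TRIB3, a target of the stress factor DDIT3, was at -1.03, -1.45 and -0.89. STAT3, a factor upstream of MCL1 and BCL2L1, was at -0.0018, 0.68 and 0.69, with 0.27, 0.26 and 0.28 by its other probe.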

How the data were processed

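RNA of SUM149 cells was hybridised to 4 two-colour Agilent arrays, 1 per time point (untreated, 3, 6 and 12 h). The authors deposited scanner files made with Feature Extraction 12.0.1.1 (protocol GE2_1200_Jun14, build hg19), with spot intensity and background per colour and spot flags (outlier, well above background). A further file of the authors holds normalized log2 values beside gene symbols, which served for the symbols and as an alternative; its normalization is not given in the sources used here.

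From each array of 62976 spots the 2075 control spots were left out. Median intensity was background corrected by normexp with an offset of 50, normalized by loess within and Aquantile between arrays in limma 3.58.1 (R 4.3.3), and averaged over the spots of a probe, without outlier spots. The offset makes changes of dim probes smaller. The probe brightest in Cy3 stood for a gene. A gene counted as measured when it was well above background in both colours of both arrays compared. Technical SD is the pooled SD between spots. A spot was counted as in a damaged area where, in the window of 13 rows by 7 columns around it, 10% or more of spots were outliers or had a Cy3 over 2-fold from the median of the arrays. No test was run, since each time has 1 array, and precision is limited by that number. All members were named with every probe, and genes of the 4 pathway lists (other family genes, apoptosome and caspases, death receptors, regulators) where past 1.5-fold by the probe that stands for the gene. The members and lists were chosen with earlier results of these data known. The normalization was tried on the untreated array and a noisy copy of it with planted changes. That cannot show how it performs between arrays that differ in damage. For promoters, 6 motifs were searched as letters on both strands of the 250 bases before each start, using Python 3.11.15.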

Additional observations from a re-analysis of the deposited data

How the results depend on the processing

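The values were recomputed under 8 alternatives and, for counts, a 1.5-fold threshold, chosen with earlier results of these data known. No paired analysis was possible because there is 1 array per time point, and no array could be left out of a comparison. Of the role medians and counts of members, 96 values moved by less than the technical SD or, for counts, stayed within 1.5 times. Another 24 medians moved by more, 4 counts were higher and 2 were lower, and no value past 2-fold changed sign. The 96 include the values without the filter on dim probes, which could not move because every member had passed that filter. The BH3-only median was 1.33 at 3 h and 0.45 at 12 h with median centring, 1.28 and 0.56 with Cy5 alone, 0.64, 0.49 and 0.42 at 3, 6 and 12 h as the median over the probes of a gene, and 0.88, 0.65 and 0.48 with damaged areas left out, which removes BMF. The anti-apoptotic median was 0.21 at 6 h and -0.15 at 12 h with median centring, and -0.029 at 12 h with Cy5 alone. The effector median was -0.11, -0.13 and -0.16 with the scanner software's processed signals, -0.069, -0.064 and -0.10 in the authors' table, 0.31 at 3 h and -0.20 at 12 h with median centring, and 0.84, 0.84 and 0.78 with Cy5 alone, where BAK1 decides it. Members past 2-fold at 12 h were 2 with an offset of 1 and 2 with Cy5 alone, 0 with damaged areas left out and 4 at 1.5-fold, where 1 was lower. At 6 h they were 2 as the median over probes. The causes of these shifts were not tested. Median centring put the median of all genes at 0.076, -0.084 and -0.16, and moved rises among genes changed 2-fold from 82.2%, 74.97% and 67.7% to 89.7%, 51.6% and 27.2%. Dim probes limit BMF and BCL2 most: with an offset of 1 BMF was at 2.96, 2.96 and 2.50.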
